A study of Mus musculus with 8 samples.

Results

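The mitochondrial Slc25 carriers are a family of membrane proteins that move metabolites, nucleotides, cofactors and ions in and out of mitochondria. They were taken here as every gene of the deposited table whose GENCODE M21 symbol is Slc25a followed by a number, which gave 46 of 35852 genes. The annotation holds 47 such symbols, and Slc25a2 is not analysed here. Of the 46 members, 39 passed the filter on low counts and were tested, and the other 7 had between 0 and 34 counts summed over all 8 libraries. The rule used names only, with no measured value.

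The cells were bEnd3, an established mouse brain endothelial cell line transformed with the polyoma middle T antigen, so all libraries come from 1 transformed line. Cells were seeded in DMEM with 10% FCS, and 4 libraries came from cultures labelled 5 µM corticosterone for 24 h. The other 4 came from cultures labelled culture medium, with no vehicle named. The comparison asks how the transcriptome of these cells differs under corticosterone, the main glucocorticoid of mice, which acts through the glucocorticoid receptor. The labels do not say that replicates were separate cultures, so p-values measure the spread between these libraries, which may be technical.

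Slc25 carriers are encoded in the nucleus, made in the cytosol and inserted by the TIM22 translocase into the inner mitochondrial membrane, with a few members in the outer membrane or in peroxisomes. Most exchange 1 substrate for another: ADP for ATP, aspartate for glutamate, 2-oxoglutarate for malate. Endothelial cells make much of their ATP by glycolysis, and their mitochondria are known for supplying biosynthesis and signals as well as energy.

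Library totals ranged from 1.98e+07 to 4.62e+07 estimated counts, and the members took 0.259% to 0.269% of them. Corticosterone replicates 1 and 2 stood apart. Their gene counts differed from each other with a chi-square per degree of freedom of 97.2 and from replicates 3 and 4 with 44.6 to 62.8, against 2.16 to 4.76 for every other pair within a group. In these same 2 libraries the deposited effective length of each of the 61001 transcripts of at least 1000 nt was its full length plus 1, while in the other 6 libraries it was shorter by a median of 340 to 360 nt. Counts of calls are therefore also given from the 6 libraries without them, and for each called carrier and each named pathway gene it is said where the call was lost there. Fkbp5, Per1 and Tsc22d3, textbook targets of the glucocorticoid receptor, were 6.83-fold, 4.42-fold and 3.87-fold higher with corticosterone, which checks the labels. All 11 endothelial markers were detected, with a summed level of 8236 to 8747 CPM in medium and 9057 to 9404 with corticosterone. CPM here are counts per 1000000 of the library size over the tested genes, after TMM scaling between libraries. Of the endothelial markers, 6 were called higher and 3 lower (edgeR, adjusted p under 0.05), where 19.5% and 20.6% of all genes were called. In the 6 libraries 5 were higher and 3 lower, where 18.4% and 18% of all genes were called. Cdh5 lost its call there (adjusted p = 0.113). The 8 pericyte and smooth muscle markers summed to 2.21 to 3.82 CPM in medium and 1.74 to 2.73 with corticosterone (of 3 tested, Acta2 at 0.518-fold and Pdgfrb at 0.578-fold were called lower), the 10 neural and glial markers to 1.55 to 2.1 and 1.33 to 1.95 (Syt1, Aqp4 and Olig2 at 0), and the 7 microglia and macrophage markers, mostly Cd68, to 18.3 to 20.6 and 18.2 to 20.7 (P2ry12 at 0). In the 6 libraries Acta2 kept its call and Pdgfrb lost it (adjusted p = 0.0539). Myh11, not tested over the 8 libraries, was called higher in the 6 (2.8-fold, adjusted p = 0.00556). Its means over the 8 libraries were 0.223 CPM in medium and 0.518 with corticosterone. The part of these markers in the results was not tested.

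In medium, 3 carriers held most of the family's transcripts. Levels between genes are compared in TPM, which scales transcripts to a sum of 1000000 after dividing by length, over the 4 medium libraries. Slc25a5, the ADP/ATP carrier ANT2, was at 662 TPM in the median (647 to 673), Slc25a3, the phosphate carrier, at 636 (605 to 646), and Slc25a4, the ADP/ATP carrier ANT1, at 347 (339 to 355). Together they made up 64.1% to 64.8% of the family's summed TPM in each medium library. Slc25a39, which is needed for glutathione import, followed at 209 TPM (207 to 218), and no other member reached 100 TPM. These 4 genes kept their order in all medium libraries, with ranges that did not overlap. In medium replicate 1, however, Slc25a5 and Slc25a3 were nearly level, at 647.3 and 646.0 TPM. Only 50.6% of the 31-base words of Slc25a5 are found in no other gene, so its counts and its first rank are uncertain.

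Below them, 22 members lay between 10 and 100 TPM, 11 between 1 and 10, and 9 under 1. Slc25a11, the 2-oxoglutarate carrier, was at 74.9 TPM (71.6 to 79.0), above Slc25a24 at 59.1 (55.9 to 62.0), Slc25a51 at 57.6 (53.1 to 62.8) and Slc25a12 at 56.7 (51.5 to 57.1), which could not be ordered among themselves. Over the whole order, 30 of 45 neighbouring pairs had overlapping ranges. Slc25a41 had a count of 0 in every library, which allows up to 0.0124 CPM over the 8 libraries (3 counts; counting error only), and Slc25a31, the ADP/ATP carrier known from male germ cells, rounded to 0 in every library. Of the members that were tested, Slc25a23 at 0.952 TPM and Slc25a27 at 0.377 TPM were the lowest.

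**Figure D1:**
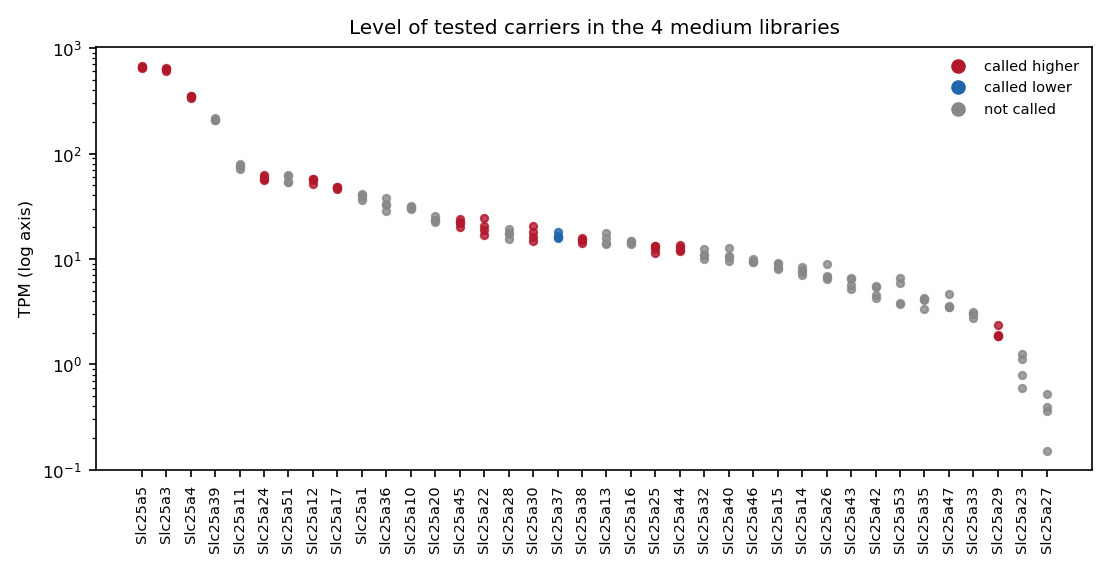
Level of 38 tested carriers in each of the 4 medium libraries, in TPM on a log axis, ordered by median and coloured by the call under corticosterone. Slc25a5, Slc25a3, Slc25a4 and Slc25a39 sit above 100 TPM; the called carriers run from Slc25a29 at 1.89 TPM to Slc25a5 at 662 TPM.

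Between corticosterone and medium, 13 of the 39 tested carriers were higher and 1 was lower, all by small amounts. A gene was called at an adjusted p under 0.05 (edgeR, adjusted over all 13272 genes tested). The share of carriers called, 35.9%, was near the 40.1% called among all genes. The direction was less even: 33.3% of carriers were called higher against 19.5% of all genes, and 2.56% lower against 20.6%. No test of this split was made, and it was less marked under some other choices. Without corticosterone replicates 1 and 2, 7 carriers were called higher and 4 lower, where 18.4% and 18% of all genes were called. With scaling by library size alone the split was 8 to 4, where 16.5% and 25.4% of all genes were called higher and lower, with the median log2 change of all genes at -0.04.

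The called rises ranged from 1.06-fold to 1.29-fold, and none of the called changes reached 0.5 on the log2 scale, the size set for naming a gene in full. The called members described here were therefore chosen after their values were seen. The median log2 fold change of the 39 carriers was 0.08, against -0.005 for all genes tested, and 64.1% of the carriers had a positive value against 49.1% of all genes. The 4 libraries of each group did not overlap for 13 carriers, 11 higher and 2 lower, or 33.3%, while 39.9% of all genes did so. The called genes that passed the threshold in all 14 alternative analyses numbered 6: Slc25a12, Slc25a22, Slc25a30, Slc25a37, Slc25a38 and Slc25a45.

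Summed over the family, the carriers reached 2541, 2582, 2575 and 2594 CPM in the medium libraries and 2733, 2730, 2672 and 2640 CPM with corticosterone. All corticosterone libraries lay above all medium libraries, at a ratio of means of 1.05, and replicates 1 and 2 were the highest. Part of this gap came from the TMM factors, which were 0.983 to 0.996 with corticosterone and 1.006 to 1.022 in medium. As plain shares of the library totals, the carriers took 0.2627% to 0.2686% with corticosterone and 0.2594% to 0.2608% in medium. These shares were also apart, by a smaller relative gap. Slc25a3, Slc25a5, Slc25a4 and Slc25a39 made up 61.1% of the summed CPM in medium. Without these 4 genes the ratio was 1.04, from 1000 ± 7.37 CPM (SD, n = 4) in medium to 1041 ± 12.4 (SD, n = 4). In bulk libraries, a change in RNA per cell and a change in the cells present cannot be told apart.

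**Figure D2:**
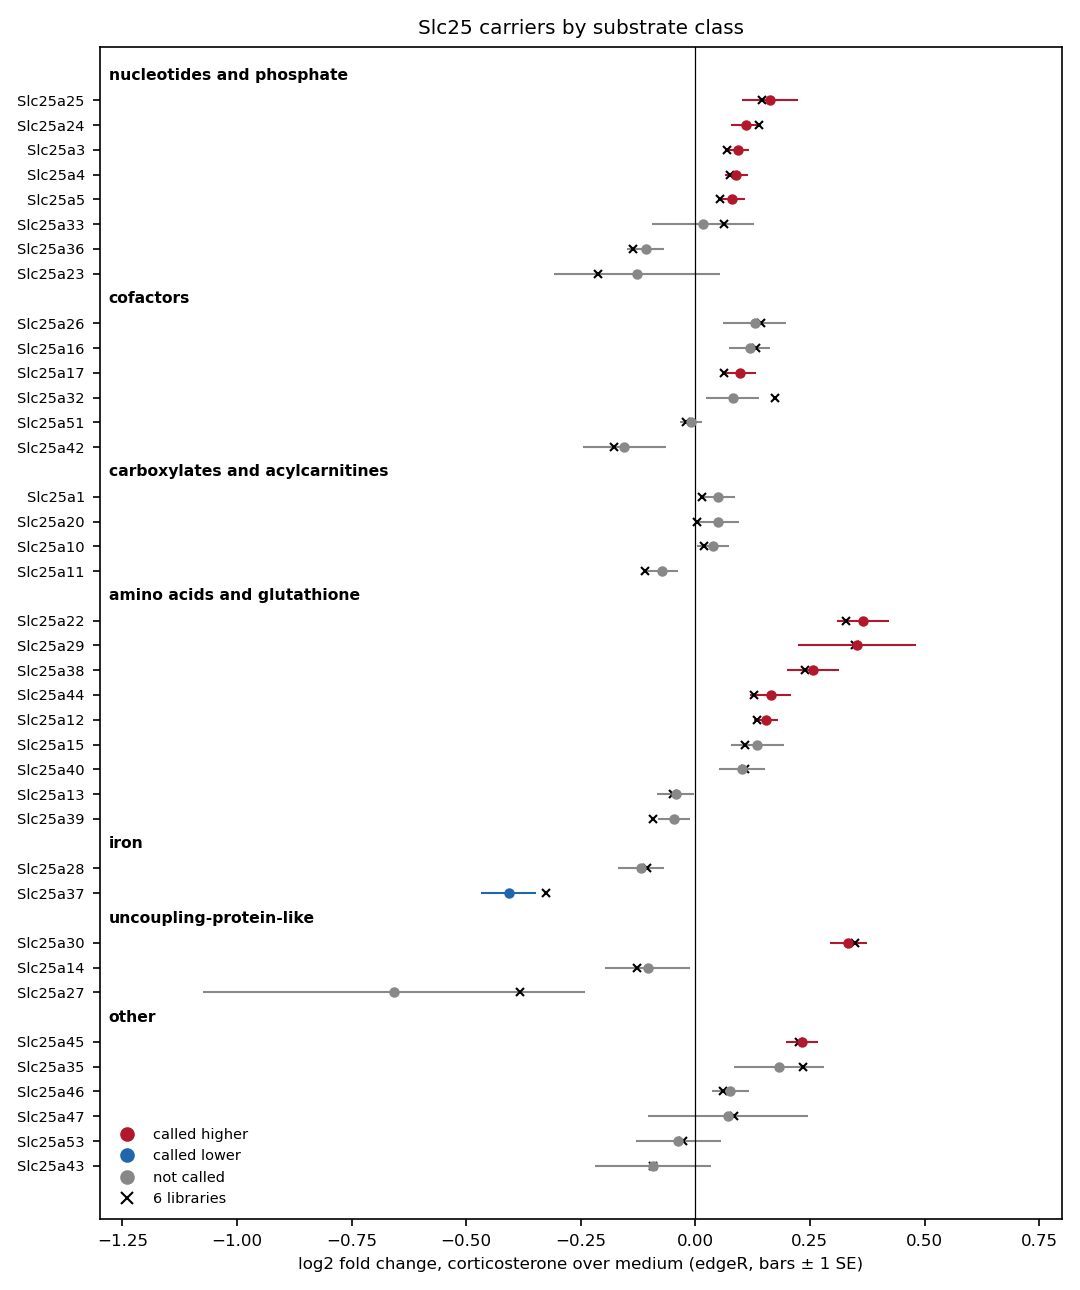
Log2 fold change of 38 tested carriers, corticosterone over medium, with bars of 1 standard error, grouped by substrate class; crosses give the value from the 6 libraries without corticosterone replicates 1 and 2. Slc25a22, Slc25a29 and Slc25a30 lie farthest to the right, and Slc25a37 is the called gene on the left.

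The carriers of amino acids and glutathione held 5 of the 13 called rises. Of 9 tested members of this class, 5 were higher, none was lower and 4 were not called, with a median log2 change of 0.15. Among all genes, 19.5% were called higher and 20.6% lower. In the 6 libraries 3 were higher (Slc25a12, Slc25a22 and Slc25a38) and 1 was lower (Slc25a39), where 18.4% and 18% of all genes were called. The 5 over 8 libraries were Slc25a22, Slc25a29, Slc25a38, Slc25a44 and Slc25a12, and in each of them the 4 corticosterone libraries lay above the 4 medium libraries.

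Slc25a22 (ENSMUSG00000019082.18; GRCm38 chr7:141429744-141437892, minus strand) encodes the glutamate carrier GC1, which brings glutamate into the matrix together with a proton. It had 33.1, 28.7, 28.1 and 30.9 CPM in corticosterone replicates 1 to 4 and 23.5, 23.4, 22.1 and 24.6 CPM in medium replicates 1 to 4. The lowest treated library lay well above the highest untreated one. The change was 1.29-fold (log2 0.37 ± 0.06 SE, adjusted p = 0.000209), and in the 6 libraries log2 0.33 with an adjusted p of 0.000136. Its paralogue Slc25a18, the glutamate carrier GC2, had 34 counts in all and was not tested. In medium, coding transcripts of Slc25a22 took 34.2% to 60.4% of its counts. Those annotated as targets of nonsense-mediated decay took 22.5% to 49.7%, and those retaining an intron 16.1% to 33.8%. The coding transcripts had 14.89 and 10.52 CPM in corticosterone replicates 3 and 4 and 7.57 to 14.85 CPM in medium, ranges that overlapped.

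Slc25a12 (ENSMUSG00000027010.16; chr2:71271063-71367749, minus strand) encodes aralar, the calcium-regulated aspartate/glutamate carrier of the malate-aspartate shuttle. It had 102, 107, 102 and 99.8 CPM with corticosterone against 91.7, 93.6, 91.5 and 92.5 CPM in medium. The groups did not overlap, and the medium libraries were close together. The rise was 1.11-fold (log2 0.15 ± 0.03 SE, adjusted p = 0.00042), with an adjusted p of 0.00273 in the 6 libraries. Slc25a13, or citrin, which does the same exchange, had 27.6 ± 0.374 CPM with corticosterone and 28.4 ± 1.23 CPM in medium (SD, n = 4 each) and was not called (adjusted p = 0.496). Most of the counts of Slc25a12 were assigned to 1 transcript annotated as a target of nonsense-mediated decay, with 69.2% to 73.1% in the 6 libraries and 84.2% and 80.2% in corticosterone replicates 1 and 2. That transcript was at 71.1 and 71.3 CPM in corticosterone replicates 3 and 4 and at 63.4 to 68.5 CPM in medium. The coding transcript had 27.19 and 25.25 CPM in those 2 libraries and 22.52 to 25.44 CPM in medium, ranges that overlapped.

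Slc25a38 (chr9:120110374-120124504, plus strand) encodes the glycine carrier that supplies the first step of haem synthesis. Its levels were 12.2, 13.1, 12.3 and 12.2 CPM with corticosterone and 10.1, 10.8, 10.9 and 9.93 CPM in medium, 1.19-fold higher (log2 0.26 ± 0.06 SE, adjusted p = 0.0031; 0.0163 in the 6 libraries). Slc25a44 (chr3:88410498-88425139, minus strand) encodes the carrier of branched-chain amino acids. It had 35.1, 34.6, 33.4 and 33.1 CPM with corticosterone and 32.1, 31.1, 29.6 and 28.6 CPM in medium, 1.12-fold higher with an adjusted p of 0.0101. This call was lost without corticosterone replicates 1 and 2, where the adjusted p was 0.0645 at a log2 change of 0.13.

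Slc25a29 (chr12:108825873-108835883, minus strand), a carrier of basic amino acids such as lysine and arginine, was low, with 623 counts in all. It had 2.98, 2.84, 3.25 and 2.46 CPM with corticosterone and 2.25, 2.21, 2.31 and 2.26 CPM in medium. The fold of 1.28 was among the larger ones of the family, but its adjusted p of 0.0447 stood close to the threshold and passed it in 1 of the 14 alternatives (adjusted p = 0.121 in the 6 libraries). Its neighbour Slc25a47 starts 163 bases away on the opposite strand and was not called (fold 1.05, adjusted p = 0.784). Slc25a15, the ornithine/citrulline carrier, and Slc25a40, a glutathione carrier, had folds of 1.1 and 1.07 without a call (adjusted p = 0.0812 and 0.129). Slc25a39 was at 190 ± 8.39 CPM with corticosterone and 196 ± 6.73 CPM in medium (SD, n = 4 each, adjusted p = 0.318). In the 6 libraries it was called lower (log2 -0.09, adjusted p = 0.0402).

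The iron carriers were the class with no positive value. Slc25a37 (ENSMUSG00000034248.7; chr14:69241848-69285112, minus strand) encodes mitoferrin 1, which brings iron into the matrix for haem and iron-sulfur cluster synthesis and is best known from red cell precursors. It had 37.8, 38.3, 42.5 and 43.8 CPM with corticosterone and 58.8, 51.2, 51.0 and 54.3 CPM in medium. Every treated library lay below every untreated one, with replicates 1 and 2 the lowest. Slc25a37 fell to 0.754 of its medium level (log2 -0.41 ± 0.06 SE, adjusted p = 0.000274), and the 6 libraries gave log2 -0.33 with an adjusted p of 0.000344.

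Slc25a28, mitoferrin 2, the form found in most tissues, had 18.6, 18.1, 18.7 and 18.9 CPM with corticosterone and 21.2, 19.9, 18.6 and 20.9 CPM in medium. One medium library lay among the treated ones, and the change of 0.921-fold was not called (adjusted p = 0.0761). Most counts of Slc25a37 fell on a transcript of 5927 nt annotated as retaining an intron, with 78.4% to 90.4% in every library. This transcript was at 38.4 CPM in both corticosterone replicates 3 and 4 and at 48.9, 40.1, 40.6 and 46.7 CPM in medium, so those 2 libraries lay below all 4. Its coding transcript of 4174 nt had 0 and 1.04 CPM in those 2 treated libraries and 0.632 to 4.76 CPM in medium, ranges that overlapped. Of the gene's 31-base words, 92.3% occur in no other gene. Genes that share some of the others include Gm16867, Gm37847 and Gm31748.

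Among the uncoupling-protein-like carriers, Slc25a30 (ENSMUSG00000022003.7, chr14:75760117-75787037, minus strand), also called KMCP1, rose. It had 42.1, 47.0, 45.5 and 44.6 CPM with corticosterone and 35.8, 35.0, 36.8 and 34.6 CPM in medium, so the groups were well apart. The rise was 1.26-fold (log2 0.33 ± 0.04 SE, adjusted p = 2.41e-05), the smallest adjusted p of the family, and log2 0.35 in the 6 libraries (adjusted p = 3e-06). Slc25a14 (UCP5) was at 4.74 ± 0.442 CPM with corticosterone and 5.09 ± 0.16 CPM in medium (SD, n = 4 each), and was not called. Slc25a27 (UCP4) had the most negative estimate of the family, log2 -0.66 ± 0.42 SE, on 109 counts in all (adjusted p = 0.24).

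**Figure D3:**
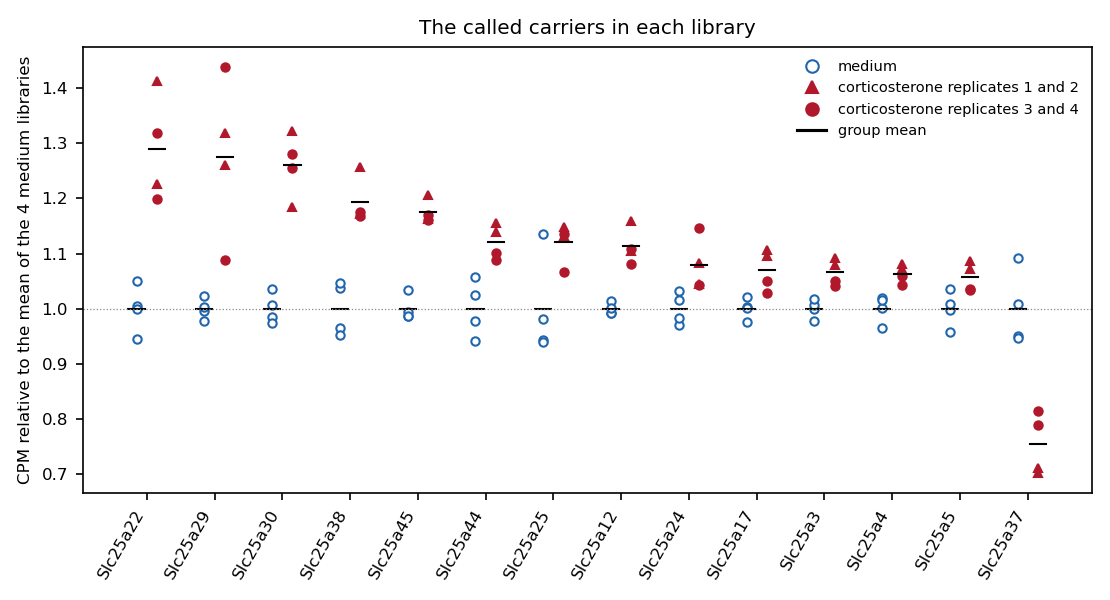
CPM of the 14 called carriers in each library, divided by the mean of the 4 medium libraries; black lines are group means and triangles are corticosterone replicates 1 and 2. The groups overlap for Slc25a25 and Slc25a5 and are apart for the other 12.

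Carriers of nucleotides and phosphate held 5 called rises among 8 tested members and no called fall over the 8 libraries. Among all genes, 19.5% were called higher and 20.6% lower. In the 6 libraries the class had 1 rise, Slc25a24, and 1 fall, Slc25a36, where 18.4% and 18% of all genes were called. The 3 most abundant carriers were among the 5 rises over the 8 libraries, each with a rise under 1.07-fold. Slc25a3 (ENSMUSG00000061904.12; chr10:91116574-91124059, minus strand) had 636, 629, 612 and 606 CPM with corticosterone and 582, 586, 569 and 592 CPM in medium (1.07-fold, log2 0.09 ± 0.02 SE, adjusted p = 0.00758). Slc25a4 (chr8:46206797-46211284, minus strand) had 382, 385, 372 and 377 CPM against 344, 363, 357 and 362 CPM (1.06-fold, adjusted p = 0.0121). In both genes the groups were narrowly apart, and neither was called in the 6 libraries (adjusted p = 0.0767 and 0.0626).

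Slc25a5 (chrX:36795651-36798807, plus strand) had 476, 470, 454 and 453 CPM with corticosterone and 420, 437, 454 and 442 CPM in medium. Medium replicate 3 lay within the treated range. The rise was 1.06-fold with an adjusted p of 0.0408, and the call was lost in 9 of 14 alternatives, among them the 6 libraries (adjusted p = 0.218). Only 50.6% of its 31-base words are found in no other gene, because genes such as Gm5560, Gm5529 and the pseudogene Slc25a5-ps carry the same stretches, so its counts are uncertain. The log2 ratio of Slc25a4 to Slc25a5 was -0.29 ± 0.02 with corticosterone and -0.30 ± 0.04 in medium (SD, n = 4 each).

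Slc25a3 has 2 alternative forms of the third exon, of which 1 enters each coding transcript. The upstream one is known from the heart and skeletal muscle form of the phosphate carrier, the downstream one from the form found in most tissues. They are shown because the counts of the 6 like libraries fell mostly on 1 of them. Both are in GRCm38 and read on the minus strand, at chr10:91122207-91122331 (125 bases) and chr10:91121922-91122043 (122 bases), and capitals mark the bases that differ between them in a global alignment (125 columns, 77 identical and 3 with a gap):
Slc25a3 upstream exon: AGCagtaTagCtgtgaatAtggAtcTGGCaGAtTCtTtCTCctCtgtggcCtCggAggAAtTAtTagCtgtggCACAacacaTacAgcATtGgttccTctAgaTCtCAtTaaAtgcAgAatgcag
Slc25a3 downstream exon: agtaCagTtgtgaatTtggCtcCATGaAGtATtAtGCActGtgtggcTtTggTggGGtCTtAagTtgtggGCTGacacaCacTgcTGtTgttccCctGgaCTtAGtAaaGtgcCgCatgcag

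Transcripts with the downstream exon took 89.5%, 91.0%, 91.8% and 92.5% of the counts of Slc25a3 in the medium libraries and 91.8% and 91.9% in corticosterone replicates 3 and 4. Those with the upstream exon took 4.17%, 4.16%, 2.99% and 2.72% in medium and 2.74% and 3.16% in those 2 treated libraries. Thus the form found in most tissues made up the bulk in all 6. In corticosterone replicates 1 and 2 the shares were 52.2% and 76.5% for the downstream exon and 19.5% and 15.3% for the upstream one. Such departures were common in these 2 libraries: the main transcript's share lay outside the range of the other 6 in replicate 1 for 23 of the 39 carriers and in replicate 2 for 22. In Slc25a4, a transcript annotated as retaining an intron took 2.86% and 64.4% of the counts in replicates 1 and 2 and 17.0% to 22.8% elsewhere, while the gene totals given above, 382 and 385 CPM, were close to each other. Levels of single transcripts are therefore compared with medium only for corticosterone replicates 3 and 4.

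The ATP-Mg/phosphate carriers Slc25a24 and Slc25a25 adjust the adenine nucleotide pool of the matrix in response to calcium. Slc25a24 had 140, 135, 148 and 135 CPM with corticosterone and 125, 127, 133 and 131 CPM in medium, and rose 1.08-fold (adjusted p = 0.0195; 0.00925 in the 6 libraries). This call was lost in 4 of 14 alternatives, with adjusted p up to 0.0759: library size alone, and without corticosterone replicate 3, medium replicate 1 or medium replicate 2. Slc25a25 had 25.1, 24.8, 24.8 and 23.3 CPM against 20.6, 21.5, 20.6 and 24.8 CPM. Its medium replicate 4 was as high as the treated libraries, and its call (1.12-fold, adjusted p = 0.0498) was lost in 11 of 14 alternatives (adjusted p = 0.136 in the 6 libraries). Slc25a23 was near 1 TPM and not called.

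Slc25a36, a carrier of pyrimidine nucleotides, had 52.7, 52.0, 52.8 and 47.9 CPM with corticosterone and 58.9, 54.6, 54.1 and 53.7 CPM in medium. All treated libraries lay below all medium libraries, although the fold of 0.928 missed the threshold (adjusted p = 0.051). The 6 libraries gave log2 -0.14 with an adjusted p of 0.0401. Slc25a33, the other pyrimidine carrier, had 3.43 ± 0.316 CPM with corticosterone and 3.4 ± 0.208 CPM in medium (SD, n = 4 each).

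Of the 7 carriers linked to cofactors, only Slc25a17, the peroxisomal carrier of coenzyme A and related nucleotides, was called (14.3%, against 40.1% of all genes). It had 50.2, 50.8, 48.2 and 47.1 CPM with corticosterone and 44.8, 46, 46.8 and 45.9 CPM in medium. The groups were apart by less than 1 CPM, the rise was 1.07-fold (adjusted p = 0.032), and the call was lost in 10 of 14 alternatives (adjusted p = 0.234 in the 6 libraries). The NAD+ carrier Slc25a51 was nearly level, at 85 ± 1.15 CPM with corticosterone and 85.5 ± 1.43 CPM in medium (SD, n = 4 each), with a log2 change of -0.01 ± 0.02 SE. Slc25a32, linked to folate and FAD, had 21.1, 20.2, 24.0 and 22.9 CPM against 21.1, 21.5, 19.7 and 21.1 CPM. Replicates 3 and 4 of the treated group were above and replicates 1 and 2 within the medium range, and the gene was called higher in the 6 libraries (log2 0.17, adjusted p = 0.0213). Slc25a16, Slc25a42 and Slc25a26 had adjusted p-values of 0.0533 to 0.202.

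None of the 4 tested carriers of carboxylates and acylcarnitines was called over the 8 libraries, where 40.1% of all genes were. Slc25a1, which exports the citrate used in lipid synthesis, had 35.7 ± 1.24 CPM with corticosterone and 34.5 ± 0.765 CPM in medium (SD, n = 4 each; adjusted p = 0.333). Slc25a10, the dicarboxylate carrier, and Slc25a20, the carnitine/acylcarnitine carrier of fatty acid oxidation, had folds of 1.03 and 1.04 (adjusted p = 0.422 and 0.45). Slc25a11, the 2-oxoglutarate/malate carrier, had 67.7, 71.9, 66.4 and 65.7 CPM with corticosterone and 70.9, 73.3, 68.3 and 73.3 CPM in medium. It was not called over 8 libraries (log2 -0.07, adjusted p = 0.117), and was called lower over 6 (log2 -0.11, adjusted p = 0.0287). Its gene overlaps Rnf167, which was itself lower (log2 -0.26, adjusted p = 0.00127). Counting by strand is not given in the sources used here, so reads of overlapping genes may not be separable; the part of Rnf167 was not tested.

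Among the remaining carriers, whose substrates are less well known, Slc25a45 rose. Slc25a45 (ENSMUSG00000024818.15; chr19:5877808-5885878, plus strand) had 37.8, 36.4, 36.7 and 36.4 CPM with corticosterone and 30.9, 32.4, 31.1 and 30.9 CPM in medium. Both groups were tight and far apart for their spread, and the rise was 1.17-fold (log2 0.23 ± 0.03 SE, adjusted p = 0.00016; 0.000544 in the 6 libraries). Slc25a46, an outer membrane protein of mitochondrial dynamics, was at 30.4 ± 1.23 CPM and 28.8 ± 0.322 CPM (SD, n = 4 each, adjusted p = 0.154). Slc25a35, Slc25a43, Slc25a47 and Slc25a53 had 2.09 to 5.79 CPM in medium and were not called. Slc25a35 overlaps Rangrf, which rose (log2 0.31, adjusted p = 0.000491).

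Pairs of related carriers were compared by the log2 ratio of their CPM in each library, with an exact two-sided permutation test over the 8 libraries. Of 14 pairs, 11 could be tested, and none passed after adjustment over the 11. In 3 pairs the ratios of the groups did not overlap, which gives the smallest p this design allows, 0.0286 (adjusted p = 0.105). These were Slc25a12 to Slc25a13, with a log2 ratio of 1.89 ± 0.04 under corticosterone and 1.70 ± 0.07 in medium, and Slc25a28 to Slc25a37, at -1.12 ± 0.09 and -1.41 ± 0.05. The third was Slc25a14 to Slc25a30, at -3.22 ± 0.07 and -2.78 ± 0.05 (SD, n = 4 each, for all 3). The other 8 had adjusted p-values of 0.157 to 0.6 in the exact permutation test. With only 3 pairs at the smallest p, none of these 3 could pass the adjustment whatever the size of its difference. The lack of a call therefore decides nothing for them.

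**Figure D4:**
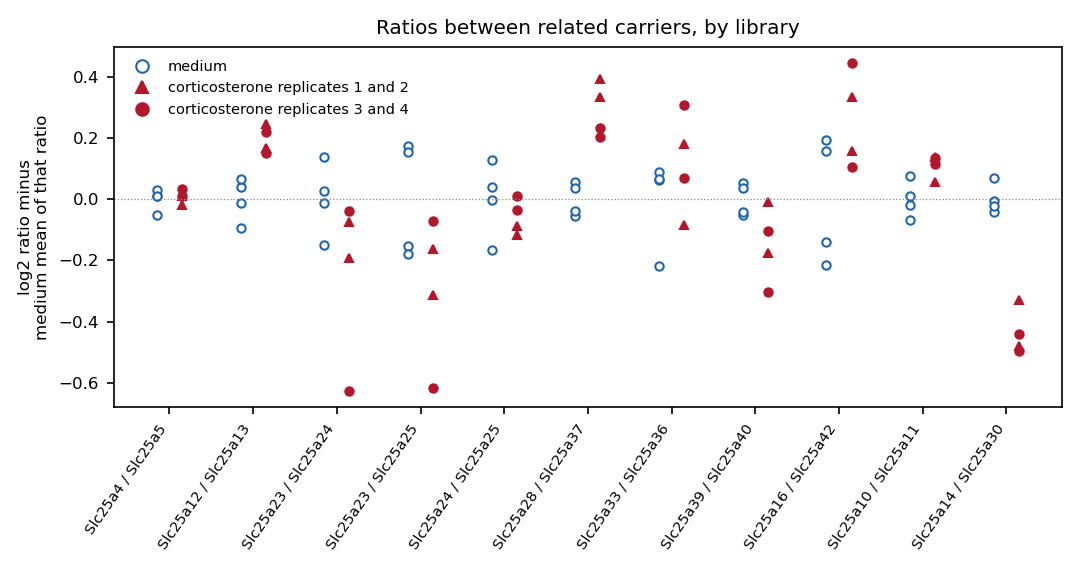
Log2 ratio of the CPM of 2 related carriers in each library, minus the mean of that ratio in the 4 medium libraries, for the 11 tested pairs. Treated and medium libraries are apart for Slc25a12 / Slc25a13, Slc25a28 / Slc25a37 and Slc25a14 / Slc25a30 and overlap for the other 8.

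Genes that work with these carriers were counted by pathway. Among all genes 40.1% were called, 19.5% higher and 20.6% lower. In the 6 libraries 18.4% of all genes were called higher and 18% lower, and with library size alone 16.5% and 25.4%. Beyond the 2 with the smallest p in each list, genes were named after their values were seen. Of the 3 tested family members with other symbols, 2 rose: the uncoupling protein Ucp2, from 83.6 ± 0.616 to 352 ± 9.98 CPM (SD, n = 4 each; 4.21-fold, adjusted p = 6.33e-14), and the outer membrane protein Mtch1 (1.05-fold, adjusted p = 0.0265). Ucp2 thus moved far more than any tested Slc25a member. Of the 13 genes of carrier import, 2 small Tim chaperones of the intermembrane space rose, Timm13 (1.13-fold, adjusted p = 0.0129) and Timm10 (1.19-fold, 0.0145), and none fell. In the 6 libraries both calls held, and Timm10b was called lower. Timm22 itself, the channel for carrier insertion, had a fold of 0.945 and was not called (adjusted p = 0.172).

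Of 19 other mitochondrial transporters, 6 rose and none fell over the 8 libraries, a share of 31.6% called against 40.1% of all genes. In the 6 libraries and with scaling by library size alone 3 rose, where 18.4% and 16.5% of all genes were called higher. The smallest p in edgeR over the 8 libraries were those of the sideroflexins Sfxn3 (1.2-fold, adjusted p = 8.5e-05) and Sfxn1, a serine carrier (1.13-fold, 0.000382). Among the 6 tested enzymes of the malate-aspartate and glycerophosphate shuttles, Got1 (1.18-fold, adjusted p = 1.41e-05), Gpd2 (1.13-fold), Mdh2 (1.08-fold) and Got2 (1.07-fold) rose and Gpd1l fell (0.886-fold, 0.00145). Over the 6 libraries Got2 was no longer called (adjusted p = 0.113), which left 3 rises. Got1 had 55.5 to 57.4 CPM with corticosterone and 46.9 to 48.2 CPM in medium, well apart. The sixth, Mdh1, had 15.9 and 39.7 CPM in corticosterone replicates 1 and 2 and 3.21 to 8.84 CPM in the other 6 libraries, and was not called.

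Of 13 enzymes of glutamine, ornithine and branched-chain amino acid metabolism, 8 rose and 1 fell. Bcat2, the mitochondrial branched-chain aminotransferase, rose 1.15-fold (adjusted p = 0.000491), and Odc1, which makes putrescine from ornithine, fell to 0.852 (adjusted p = 0.000251). Without corticosterone replicates 1 and 2 the counts of this list were 5 and 2. Of the 14 one-carbon and glycine enzymes tested, 2 rose, Mat2a (1.35-fold, adjusted p = 4.8e-08) and Phgdh, the first enzyme of serine synthesis (1.09-fold, 0.0285). The 5 that fell were Psat1 (0.794-fold, adjusted p = 3.55e-07), Mthfd1l (0.743-fold), Shmt2 (0.86-fold), Mthfd2 (0.902-fold) and Mthfd2l (0.861-fold). In the 6 libraries Phgdh (adjusted p = 0.141) and Mthfd2l (0.0757) lost their calls, which left 1 rise and 4 falls.

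Beside the glycine and iron carriers, 5 of 13 genes of haem and iron-sulfur synthesis rose and 2 fell. Alas1, the first enzyme of haem synthesis in non-erythroid cells, rose 1.11-fold (adjusted p = 0.0018), as did the cluster scaffold Iscu (1.19-fold, 3.96e-05), Isca1 (1.09-fold), Isca2 (1.1-fold) and the transferrin receptor Tfrc (1.12-fold). Hmox1, which breaks down haem, fell to 0.823 (adjusted p = 6.86e-06), and Fdx1 to 0.861 (0.0436). In the 6 libraries Isca2 (adjusted p = 0.101) and Fdx1 (0.0755) lost their calls and Nfs1 was called higher, for 5 rises and 1 fall. Of 10 citrate and carnitine enzymes, Cpt2 rose (1.17-fold, adjusted p = 0.000692) and Crat fell (0.921-fold, 0.0274), a share of 20% called. Both calls held in the 6 libraries, where Idh2 was also called lower.

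**Figure D5:**
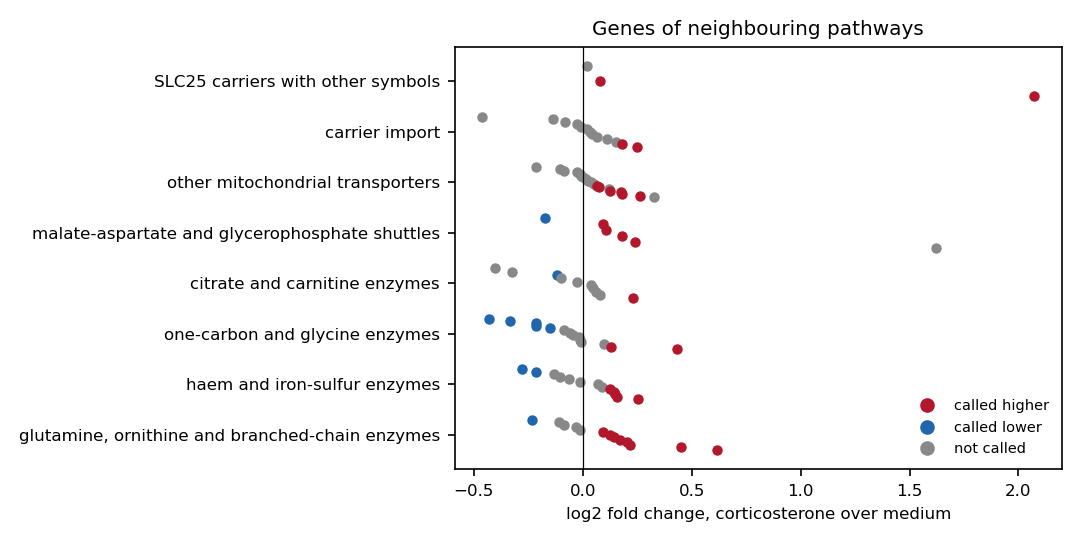
Log2 fold change, corticosterone over medium, of every tested gene in the 8 lists of neighbouring pathways, coloured by call. Ucp2 stands alone near 2.07, and the uncalled point near 1.62 is Mdh1, which was high in corticosterone replicates 1 and 2 only.

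RefSeq promoter windows (GRCm38.p6, 250 bases before to 50 after a start) were available for 36 of the 46 members, 46 windows in all, among them 12 of the 14 called genes. The glucocorticoid receptor palindrome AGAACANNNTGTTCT was in 0 of these 46 windows and in 0.009% of all 32851 windows. One arm of it, AGAACA, read on both strands, was in 4 windows (8.70%, against 18.97% of all windows), of which Slc25a17 and Slc25a45 were called. The cAMP response element TGACGTCA was in the windows of Slc25a25 and Slc25a36 (4.35% against 1.79%), and the NRF1 and ERR motifs GCGCATGCG and TCAAGGTCA were in none (1.75% and 0.423% of all windows). Every palindrome holds the arm, and the other motifs do not contain each other. A match is a run of letters, not a shown binding site. The first 200 bases of the windows of both called genes with an arm are shown 5′ to 3′ with the match in capitals, Slc25a45 at chr19:5877572-5877771 on the plus strand and Slc25a17 at chr15:81360816-81361015 on the minus strand, the latter with 1 match on each strand:
Slc25a45 promoter: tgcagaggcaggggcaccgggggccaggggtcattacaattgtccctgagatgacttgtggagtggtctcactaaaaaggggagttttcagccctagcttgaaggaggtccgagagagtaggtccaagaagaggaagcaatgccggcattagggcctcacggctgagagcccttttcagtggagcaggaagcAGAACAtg
Slc25a17 promoter: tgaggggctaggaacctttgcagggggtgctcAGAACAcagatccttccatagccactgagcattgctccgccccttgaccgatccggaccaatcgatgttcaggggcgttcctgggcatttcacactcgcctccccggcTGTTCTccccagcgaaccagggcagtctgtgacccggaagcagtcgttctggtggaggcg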

How the data were processed

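Poly(A) RNA of 8 bEnd3 libraries was measured, 4 per group. Per the submitters' processing notes, reads were quantified with kallisto 0.46.1 against mm10/GRCm38. The deposited gene table holds estimated counts, and the deposited transcript files hold estimated counts, TPM and lengths; the aligner's strand setting is not given in the sources used here. Counts were rounded, filtered with filterByExpr, scaled by TMM and tested with edgeR 4.0.16 (quasi-likelihood, limma 3.58.1, R 4.3.3), with Benjamini-Hochberg adjustment over 13272 genes. CPM are counts per 1000000 of the effective library size, which is the sum over the tested genes times the TMM factor. Ratios of pairs used log2 CPM with a prior count of 3. Symbols were found for 35773 of 35852 gene rows. Named in full were to be called members and pairs with a log2 change of at least 0.5, and the 2 genes of smallest p in each list. Members and lists were chosen with earlier results of these data known. Same-numbered libraries did not deviate together (correlations of -0.05 to 0.03), so numbers were not used as pairs. Alternatives were scaling by library size, DESeq2 1.42.0, no filter, the replicate block, leaving out each library, leaving out corticosterone replicates 1 and 2 and, chosen after seeing the data, a model term for those 2 libraries. Scripts were tested on simulated data. The values of 1 tested member are not reported here.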

Additional observations from a re-analysis of the deposited data

Results flagged for a closer look

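Of 78 groups of 4 libraries looked at (39 carriers in each treatment), 3 held a library far from the other 3, by a gap to its nearest neighbour above Dixon's critical share of the group's range; chance marks about 1 in 20 such groups. Slc25a35 was at 5.82 CPM in corticosterone replicate 1, below 6.79 to 6.83 CPM in the other treated libraries. Slc25a38 was at 13.1 CPM in corticosterone replicate 2, above 12.2 to 12.3 CPM in the others. Slc25a45 was at 32.4 CPM in medium replicate 2, above 30.9 to 31.1 CPM in the others.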

How the results depend on the processing

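The counts of carriers called higher and lower were 13 and 1. They became 8 and 4 with scaling by library size alone, 10 and 1 with DESeq2, 12 and 1 without a filter, 9 and 2 with the replicate block, 7 and 4 without corticosterone replicates 1 and 2, and 7 and 3 with a term for those libraries. Leaving out 1 library gave 8 to 15 higher, with 8 without medium replicate 1 and without medium replicate 2, and 1 to 2 lower, with 2 without corticosterone replicate 2 and without medium replicate 3. The replicate block is a fit on numbers that the paired deviations did not bear out: 0 of 4 corticosterone libraries matched best with their own number. Uncalled members whose log2 change turned its sign were Slc25a33 (-0.0133 with library size alone and -0.0248 to 0.0764 when 1 library was left out), Slc25a47 (-0.0358 to 0.191), Slc25a51 (-0.0169 to 0.00543) and Slc25a53 (-0.0766 to 0.00264), the last 3 on leaving out 1 library. Among all genes, 16.5% and 25.4% were called higher and lower with library size alone, and 18.4% and 18% without corticosterone replicates 1 and 2. With library size alone, family members with other symbols had 1 rise, other transporters 3, one-carbon enzymes 1, amino acid enzymes 5 rises and 2 falls, and citrate and carnitine enzymes 2 falls. Without corticosterone replicates 1 and 2, carrier import had 1 fall, other transporters 3 rises, citrate and carnitine enzymes 2 falls, one-carbon enzymes 1 rise, haem and iron-sulfur genes 1 fall, and amino acid enzymes 5 rises and 2 falls. DESeq2 gave citrate and carnitine enzymes 2 rises and 0 falls and haem and iron-sulfur genes 1 fall. The cause of these moves was not tested. Medium TPM levels recomputed with 1 effective length per transcript stayed within 1 SD for all 39 carriers. That length was the mean over the same medium libraries, whose lengths were already alike, so the levels could move little. The check did not cover corticosterone replicates 1 and 2, whose lengths differed. Depth limits the lowest members: Slc25a27, with 109 counts, had a standard error of 0.42, about the size of the farthest called change, -0.41 in Slc25a37.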
